A study of Mus musculus with 2 samples.

Results

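Sterol sensing and cholesterol synthesis were followed through 8 genes in NIH3T3 cells, an immortalised mouse embryonic fibroblast line, before and after stress of the endoplasmic reticulum. The genes were Scap, Srebf1, Srebf2, Insig1, Insig2, Hmgcs1, Sqle and Idi1. They were found by gene name on both arrays, 8 of 28080 names there, which gave 16 of 41141 transcript probes. Control cells were untreated and stressed cells were given 10 µM thapsigargin for 3 h. Thapsigargin blocks the calcium pump of the endoplasmic reticulum. Both groups grew in medium with 10% serum, which supplies cholesterol in lipoproteins. RNA from polysomes (P, Cy3) and RNA that was free or on monosomes (FM, Cy5) were hybridised together, on 1 array for each condition, so log2 P/FM scored the translation efficiency of an mRNA and A, the average log2 signal of both channels, its relative abundance. Each array held RNA pooled from 3 experiments, and no condition had a second array. The differences between conditions therefore have no replicate error and no test, and the differences between probes of 1 mRNA are given instead. The same total of RNA, 300 ng, was labelled for each condition. A change in A is therefore relative to that RNA and does not measure cell number or RNA per cell.

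Mammalian cells sense sterols in the membrane of the endoplasmic reticulum. SREBPs, the transcription factors encoded by Srebf1 and Srebf2, are made as membrane-bound precursors and are bound by Scap, the sterol sensor that escorts them to the Golgi for cleavage when sterols are low. Insig1 and Insig2 encode the membrane proteins that hold Scap back when sterols are high. The released factors switch on the enzymes of the mevalonate pathway, among them HMG-CoA synthase (Hmgcs1), isopentenyl diphosphate isomerase (Idi1) and squalene epoxidase (Sqle). Insig1 is itself a target of SREBPs, and its protein is short-lived.

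The probes were strands of 60 bases, and what each can report depends on where in the mRNA it lies. The probes of the 4 sensing and carrier mRNAs on which the results turn most are shown 5′ to 3′, in full for the probe of Insig1 that spans 473 genomic bases, and thus a splice junction, and otherwise by 30 bases. The capitals in the probe of transcript BC069989 mark AATAAA, the letters of the commonest signal for cleavage and polyadenylation, at the very end of the probe.
Scap (NM_001001144), chr9:110287280-110287339, plus strand: cctctgtgctggagaaactggactgaaggc
Srebf1 (NM_011480), chr11:60013214-60013273, minus strand: ggcaccttagtggcttttccctagctgagg
Srebf2 (ENSMUST00000023100), chr15:82035695-82035754, plus strand: tgggaggggttggtttttcactgaacaggg
Srebf2 (NM_033218), chr15:82034765-82034824, plus strand: aactaggtctttgcaccagagagcattttg
Srebf2 (BC069989), chr15:82003987-82004046, plus strand: aaacaactcacaatacacctgtaaAATAAA
Insig1 (NM_153526), chr5:28401146-28401618, plus strand: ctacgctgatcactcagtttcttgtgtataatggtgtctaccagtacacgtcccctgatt
Insig1 (NM_153526), chr5:28404246-28404305, plus strand: acagcatagaacacaacacgtgggacctaa
The probes of the enzymes that are compared most closely below are shown in the same way. The bright Hmgcs1 probe had the largest gain in log2 P/FM of all members that passed the filter described below.
Hmgcs1 (NM_145942, bright probe), chr13_random:114807-114866, minus strand: tatgttttgaaaagagtaattttaacgttt
Hmgcs1 (NM_145942, dim probe), chr13_random:117667-117726, minus strand: tgcccttgataaaataacagcaagtttatg
Sqle (NM_009270), chr15:59162384-59162443, plus strand: cccttttcagtagcggtgctgtactgtaca
Idi1 (NM_145360), chr13:8886802-8887206, plus strand: gatgctaaaattacctttccaggttgtttc
Idi1 (NM_145360), chr13:8891386-8891445, plus strand: aggcatatattgatactgtgttttgattga
Positions are those in the deposited files on mouse build mm9. In that build the Hmgcs1 probes lie on sequence assigned to chromosome 13 but not placed on it. The Idi1 probe at the lower coordinates covers 405 genomic bases and therefore a splice junction.

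Of the 16 probes, 14 had A above 4.5 on both arrays, and 12 of these carried the accession of a RefSeq mRNA. The comparison set was the 14657 probes of RefSeq mRNAs that passed the same filter, here called coding probes. The median of their log2 P/FM values was 0.30 for control and -0.24 for thapsigargin cells, and the median change was -0.64. The median signal of coding probes changed by 0.08 in P and by 0.71 in FM on the log2 scale. By the study's methods the fractions were labelled in their measured proportions, with more RNA in P before stress and more in FM afterwards. How far these medians reflect those amounts was not tested. Centring, used below as an alternative, removes a shift shared by all probes of an array. Loess, another alternative, also removes the trend of log2 P/FM with brightness within each array. The 10 spike-in probes, whose RNA does not come from the cells, had a median log2 P/FM of -0.40 on the control and -2.95 on the thapsigargin array. Taking these medians off shifts every change by the same amount and made the median change of coding probes 1.91. The sources used here do not say whether spike-in RNA was added in equal amounts to both fractions, so it is not known what this scaling measures. Under that scaling the change was positive for each of the 14 members except Scap. The direction of every other decrease of a member below therefore holds for the unscaled ratios and not after spike-in scaling, and only further exceptions are named. For genes outside the members the rescaling was run on list medians alone. Probes of 1 mRNA differed with a median SD of 0.32 in the change of log2 P/FM and of 0.18 in the change of A, over 3438 mRNAs with several probes. These SDs measure agreement between probes, not between experiments. Of 10 fibroblast marker genes, 10 had a probe well above background in both channels of both arrays, while the epithelial, endothelial and hepatocyte markers, 10 genes in all, had none. Cd68 alone was that bright among 3 blood markers and Fabp4 alone among 3 adipocyte markers, and their part in the results was not tested. P always carried Cy3, so fraction and dye cannot be told apart.

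Scap, the sterol sensor, lost more polysome association than any other member. Its P signal was 2784 in control and 1018 in thapsigargin cells, and its FM signal was 1525 in control and 4059 in thapsigargin cells. P exceeded FM in control cells and FM exceeded P after stress. Its log2 P/FM changed by -2.86, from 0.87 to -2.0, so that the ratio of P to FM was 7.28-fold lower. Scap stood at percentile 2.36 of the changes of coding probes. A changed by -0.02, against a median of 0.40 over coding probes, so the signal moved between the fractions with almost no change of their average. Coding probes within 0.5 of the same brightness changed by a median of -1.49, and Scap was 1.37 below that. The gap between Scap and the next member in the order, 1.24, was larger than the usual spread between probes. It was smaller with processed signals and with loess. The change of Scap was negative under all 10 alternative settings, from -2.86 to -0.31. Scap had 1 probe, so no second probe of this mRNA could be set beside it.

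**Figure D1:**
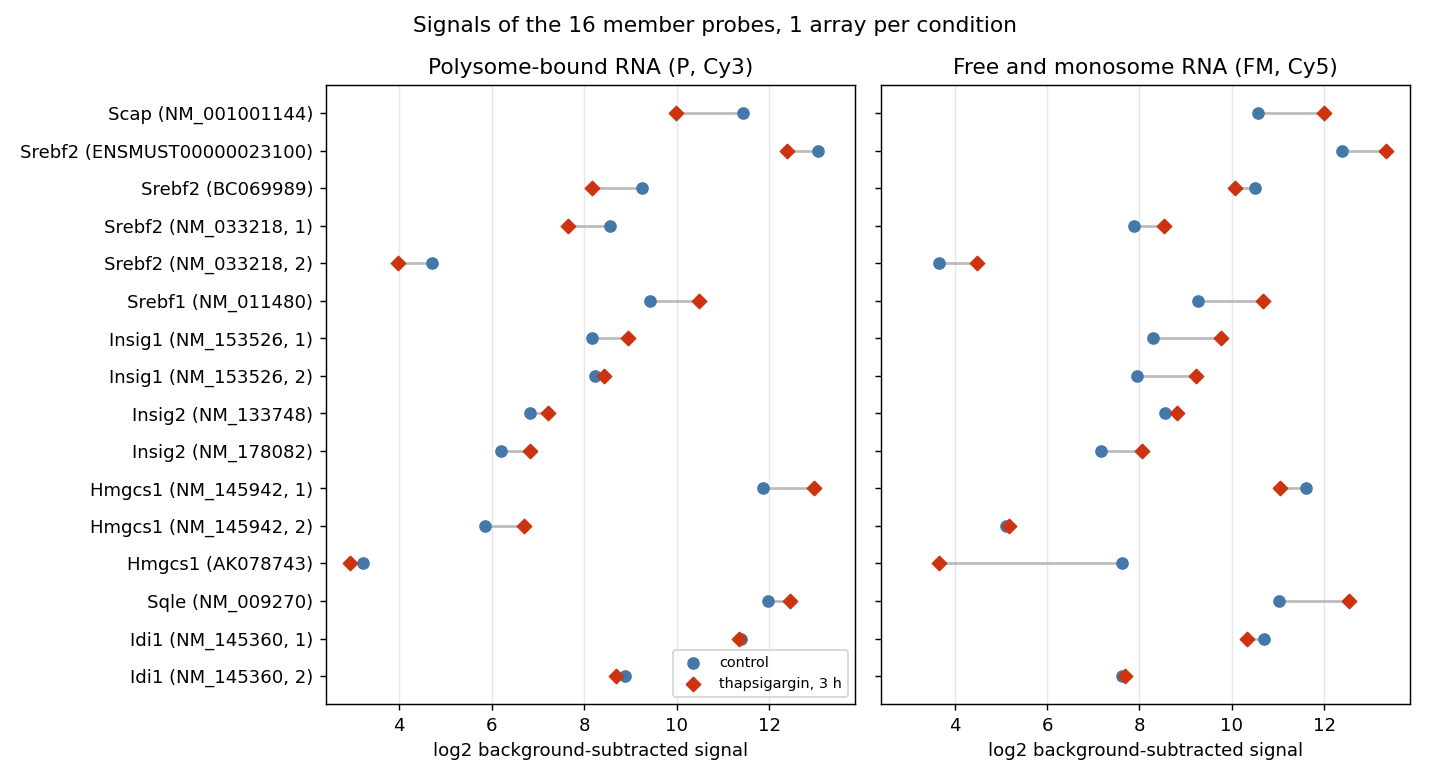
Each row is 1 of the 16 member probes and shows its log2 background-subtracted signal in polysomes (left) and in the free and monosome fraction (right), in control cells (circles) and after thapsigargin (diamonds), with 1 array per condition and no error bars. Scap moved left in P and right in FM, whereas the bright Hmgcs1 probe, labelled 1, moved right in P and left in FM.

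Srebf2 encodes SREBP-2, the main activator of cholesterol synthesis genes, and was measured by 4 probes. The probe of transcript ENSMUST00000023100 gave P signals of 8498 in control and 5363 in thapsigargin cells. Its FM signals were 5358 in control and 10398 in thapsigargin cells. The log2 P/FM changed by -1.62, from 0.67 to -0.96, a direction that was also lost with loess, which gave 0.04. The probe of NM_033218, 930 bases away, was less bright, at 378 in P and 237 in FM in control cells. After stress this probe gave 202 in P and 371 in FM, and the log2 P/FM changed by -1.55, from 0.67 to -0.87. The changes of these neighbouring probes differed by 0.07, but not under every setting, since with loess they were 0.04 and -1.01, with processed signals -0.14 and -1.16, and with normexp -1.58 and -0.88 in the same order. In the unscaled values, at both the P signal exceeded the FM signal before stress and was below it afterwards. Their A changed by 0.15 and -0.13, both below the coding median of 0.40.

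The remaining bright probe of Srebf2 gave a different picture. The probe of BC069989 lies 31708 bases nearer the 5′ end of the gene than that of ENSMUST00000023100, and it ends in the letters of a polyadenylation signal shown above. Its P signals were 606 in control and 289 in thapsigargin cells, and its FM signals were 1452 and 1078. Unlike the pair at the 3′ end, this transcript was already lower in polysomes than outside them in control cells, with a log2 P/FM of -1.26. After stress log2 P/FM was -1.90, a change of -0.64 that was within 0.01 of the coding median, and that was positive with the processed signals of the scanner software, 0.19, and with loess, 0.28. Its control value was 1.93 below that of each of the other pair of probes. A changed by -0.75, at percentile 1.79 of the coding probes and the lowest value among the 14 member probes. The fourth probe, chr15:82007873-82007932, plus strand, did not pass the filter on A. Only its P channel in control cells was well above background, so the measured ratio there, P 2.07-fold over FM, is not a firm bound. Its signals were 26.0 in P and 12.6 in FM in control cells, and 15.7 and 22.5 after stress.

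Srebf1 encodes the forms of SREBP-1. It had the largest change in A of all members and a small change in distribution. Its P signal was 683 in control and 1429 in thapsigargin cells, and its FM signal was 612 in control and 1631 in thapsigargin cells. Both fractions thus gained signal, 2.09-fold in P and 2.66-fold in FM. A was 1.24 higher, at percentile 93.6 of coding probes, although no member reached 1 with normexp, processed signals or centring. The log2 P/FM changed by -0.35, from 0.16 to -0.19, which is about the spread between probes, and the change was positive with the processed signals, 0.53, loess, 0.68, and centring on array medians, 0.20. The Srebf1 probe does not separate the transcripts for the different forms of SREBP-1 by anything given here, and the value is for the probe alone.

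Insig1 and Insig2, which encode the proteins that retain Scap, differed from each other in unscaled log2 P/FM, both in control cells and in the change. Insig1 had P signals of 289 in control and 492 in thapsigargin cells at its 3′ probe, and FM signals of 314 in control and 869 in thapsigargin cells. At the junction probe, 3100 bases away, P was 303 in control and 344 in thapsigargin cells, and FM was 246 in control and 595 in thapsigargin cells. Signal was higher after stress in both fractions at both probes, and more so in FM. The mean change in log2 P/FM was -0.90 ± 0.28 (SD over 2 probes), and in A it was 0.92 ± 0.28 (SD over 2 probes). The change was nearer 0 with normexp, processed signals, loess and centring, between -0.63 and -0.53 at the junction probe and between -0.46 and -0.05 at the 3′ probe. After stress the probes were 0.03 apart in log2 P/FM, at -0.82 and -0.79, although in control cells they had differed by 0.42.

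Insig2 was the member least associated with polysomes in control cells. The probe of NM_133748 gave 114 in P and 377 in FM in control cells, and 148 and 450 after stress. The probe of NM_178082 gave 73.2 in P and 144 in FM in control cells, and 114 and 267 after stress. FM exceeded P in each of these 4 comparisons. For these probes log2 P/FM was -1.72 and -0.97 in control cells and -1.60 and -1.23 after stress. The mean change was -0.07 ± 0.26 (SD over 2 probes), and the probes moved in opposite directions, by 0.12 and -0.25. For the NM_133748 probe the sign turned with normexp, to -0.21, and for the NM_178082 probe it turned with centring, to 0.30. The mean change of Insig1 was below that of Insig2 by more than the SD over either pair of probes in the unscaled values. With loess the pairs overlapped, at -0.05 for the 3′ Insig1 probe and -0.06 for the NM_178082 probe of Insig2. They also overlapped when read against coding probes of like brightness, as given below. A of Insig2 changed by 0.54 ± 0.32 (SD over 2 probes), close to the coding median of 0.40.

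Hmgcs1, which makes HMG-CoA early in the mevalonate pathway, was the only member whose polysome association was higher by 1 or more after stress. The bright probe gave P signals of 3729 in control and 7993 in thapsigargin cells, and FM signals of 3103 in control and 2103 in thapsigargin cells. P was 2.14-fold higher and FM was 0.678 of its control value. Log2 P/FM thus changed by 1.66, from 0.27 to 1.93, and the thapsigargin value stood at percentile 99.1 of coding probes. Coding probes of like brightness changed by a median of -1.60, so that Hmgcs1 was 3.26 above them. A changed by 0.27. The dim probe gave 58.2 in P and 34.5 in FM in control cells, and 104 and 36.2 after stress. Its log2 P/FM changed by 0.77, from 0.75 to 1.53, in the same direction but 0.89 less, a difference larger than the usual spread between probes. The change was positive in all 10 alternatives for the bright probe, from 1.64 to 4.21, and in all 9 that kept the dim probe, from 0.47 to 3.32. The third probe, of transcript AK078743 at chr13_random:315347-315406, minus strand, did not pass the filter on A. In control cells it gave 9.23 in P, not well above background, and 198 in FM. The measured ratio there, FM 21.5-fold over P, is therefore not a firm bound. After stress, at 7.62 and 12.6, neither channel was well above background.

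Sqle, which oxidises squalene at the first oxygenation step of sterol synthesis, gained signal in both fractions. Its P signal was 4029 in control and 5646 in thapsigargin cells, and its FM signal was 2080 in control and 5935 in thapsigargin cells. P was thus 1.40-fold and FM 2.85-fold higher, and A was 1.00 higher. The log2 P/FM changed by -1.03, from 0.95 to -0.07, but turned positive with the processed signals, 0.65, and with loess, 0.57. The same change was 0.63 above the median of coding probes of like brightness, -1.65, so Sqle lost less than other bright mRNAs although it lost more than the median of all.

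Idi1, the isomerase that supplies the allylic building block of sterols, changed little in its distribution. The probe toward the 3′ end gave P signals of 2680 in control and 2621 in thapsigargin cells, and FM signals of 1658 in control and 1276 in thapsigargin cells. The junction probe gave P signals of 471 in control and 415 in thapsigargin cells, and FM signals of 196 in control and 206 in thapsigargin cells. P exceeded FM on both arrays at both probes. The log2 P/FM was 0.69 and 1.26 in control cells and 1.04 and 1.01 after stress, with a mean change of 0.05 ± 0.42 (SD over 2 probes). At the probe toward the 3′ end the change, 0.35, was 1.83 above that of coding probes of like brightness, and it reached 1.59 with processed signals and 1.61 with loess. The change at the junction probe, -0.25, was positive with normexp, 0.35, processed signals, 0.20, loess, 0.30, and centring, 0.29. A changed by -0.13 ± 0.11 (SD over 2 probes), below the coding median of 0.40. The junction probe of Idi1 was the 1 member probe of 14 whose log2 P/FM reached 0.8 before as well as after stress, a property of 3.54% of coding probes.

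**Figure D2:**
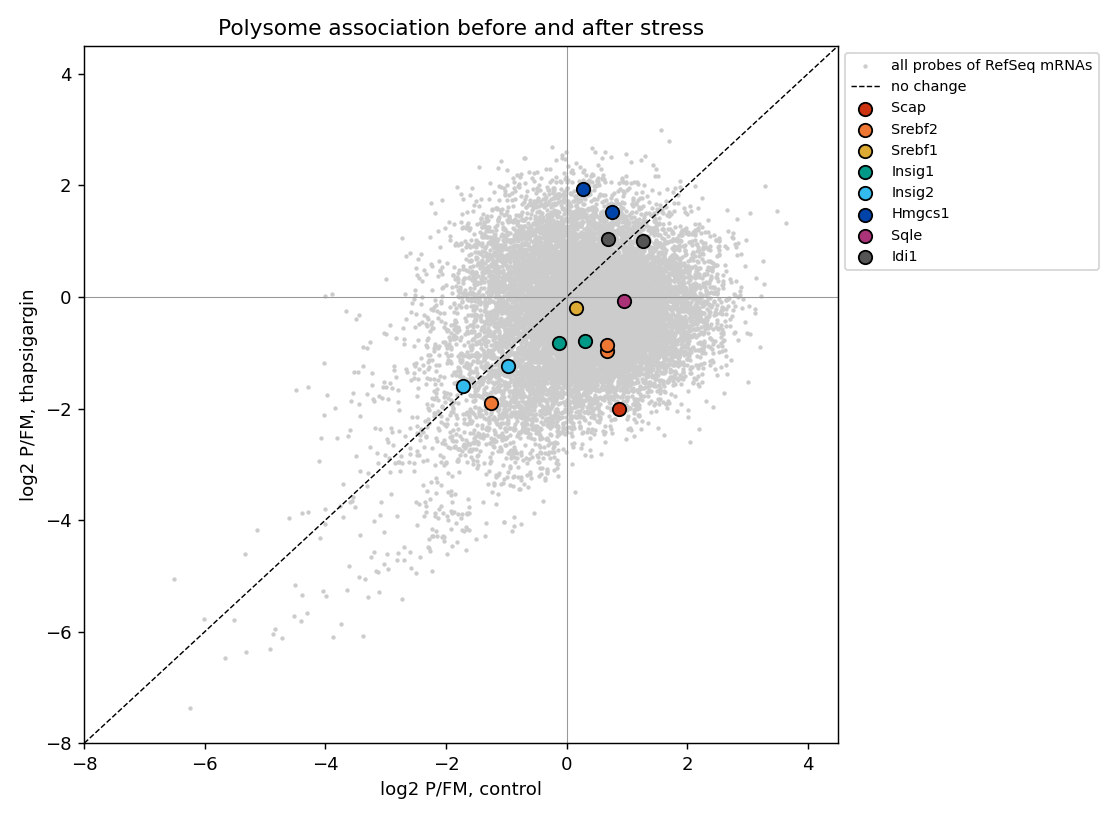
The plot sets log2 P/FM in thapsigargin cells (vertical) against control cells (horizontal) for the 14657 coding probes (grey) and the 14 member probes that passed the filter (coloured by gene). Hmgcs1 lies above the line of no change, Idi1 near it at the upper right, Insig2 near it at the lower left, and Scap farthest below it.

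Set side by side, the 14 probes did not move as a block. Their median change in log2 P/FM was -0.49, between -2.86 and 1.66, beside -0.64 for coding probes. Of the 14 probes, 5 changed by -0.8 or lower, among 45.2% of coding probes. These were Scap, the 3′ pair of Srebf2, the junction probe of Insig1 and Sqle, of which the Insig1 probe was above -0.8 with normexp, processed signals, loess and centring. A change of 1 or more was seen at 1 probe, that of Hmgcs1, and at 12.6% of coding probes. Both counts are near the background. The sensor and both of the Srebf2 3′ probes lay at the low end of the order and the Hmgcs1 and Idi1 3′ probes at the high end, with the Insig, Srebf1 and Sqle probes between. From the Srebf2 pair to the 3′ probe of Idi1, neighbours in the order were at most 0.46 apart. The spread between probes, 0.32, is that of single values, and a difference between probes spreads wider. None of these gaps is therefore taken as resolved. The gap of 1.24 above Scap was more than 2-fold that spread in the unscaled values. With processed signals it was smaller, with Scap at -1.51 and the NM_033218 probe of Srebf2 next at -1.16. With loess the same probes were at -1.58 and -1.01. At the other end the dim Hmgcs1 probe was 0.42 above the 3′ probe of Idi1, and the bright probe of the same mRNA another 0.89 higher, so there the gap lay within a gene.

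Before stress 10 of the 14 probes were at a log2 P/FM of 0 or more, as were 61.8% of coding probes, and their median was 0.48. After stress 4 of the 14 were, all of Hmgcs1 and Idi1, beside 40.2% of coding probes, and the median was -0.81 against -0.24 for coding probes. The order in control cells ran from Insig2 (NM_133748) at -1.72 to the junction probe of Idi1 at 1.26, and the gap of 0.85 between the second Insig2 probe and Insig1 was the largest in it. From the Srebf2 pair at 0.67 to Sqle at 0.95 the probes lay within the spread between probes, so their order is not resolved. A was higher by 1 or more at the Srebf1 and 3′ Insig1 probes, 2 of 14, beside 13.4% of coding probes, and Sqle, at 1.00 after rounding, lay just below that limit. This count was 0 with normexp, processed signals and centring. The median change in A was 0.29, beside 0.40. The P signal was higher after stress at 8 of the 14 probes and the FM signal at 11.

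**Figure D3:**
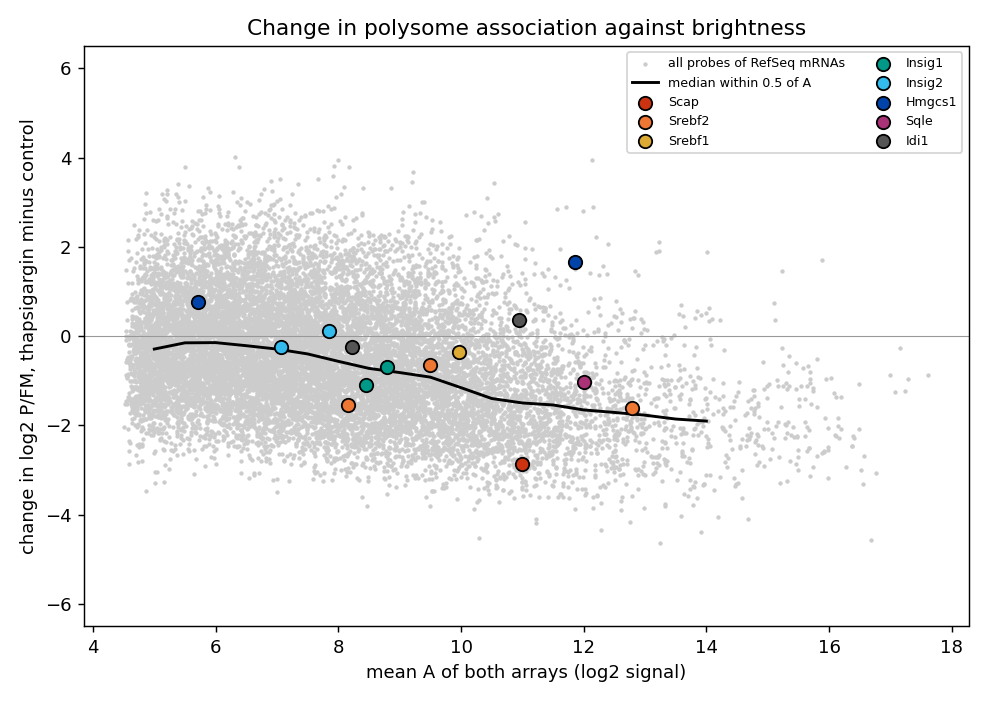
The change in log2 P/FM (vertical, thapsigargin minus control) is drawn against the mean A of both arrays (horizontal, log2 signal) for coding probes (grey), with the median of probes within 0.5 of each brightness as a line. The median was lower at higher brightness, and the bright Hmgcs1 probe lay 3.26 above the median of its own brightness while Scap lay 1.37 below it.

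Brightness moved with these changes. At an A of 6 the median change of coding probes was -0.15, at 10 it was -1.16 and at 12 it was -1.65, and the part of brightness in the members' changes was not tested. Read against probes of their own brightness, the member farthest below was Scap, followed by the NM_033218 probe of Srebf2 at -0.90. The other Srebf2 pair was 0.20 and 0.28 above, and Srebf1 was 0.79 above. Insig1 was -0.39 and 0.08 away at its junction and 3′ probes. Insig2 was 0.61 and 0.06 above at its NM_133748 and NM_178082 probes, so the Insig1 and Insig2 pairs overlapped. Idi1, Hmgcs1 and Sqle were each above, by between 0.39 and 3.26. Since the reference is a median, coding probes as a whole lie evenly on both sides of it.

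The other enzymes of the mevalonate and sterol branches, 18 genes with 31 probes past the filter, had a median change in log2 P/FM of -0.33 and split in both directions. Of the 31 probes, 10 changed by -0.8 or lower and 5 by 1 or more, 32.3% and 16.1% beside 45.2% and 12.6% of coding probes. Hsd17b7, a keto-reductase of sterol demethylation, changed by 1.63 and 1.49 at its pair of probes. At the brighter of these P was 2614 in control and 6697 in thapsigargin cells, and FM was 1858 in control and 1690 in thapsigargin cells. A was 1 or more higher at 5 enzyme probes, 16.1% beside 13.4% of coding probes. Among them were probes of Cyp51 (1.34 and 1.37) and Msmo1 (1.17), genes singled out here after their values were seen.

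Genes for SREBP processing and for the sterol-regulated protein degradation, 14 genes with 20 probes past the filter, had a median change of -0.35. Of the 20 probes, 7 changed by -0.8 or lower, 35.0% beside 45.2% of coding probes. A change of 1 or more was seen at 1 of the 20, beside 12.6% of coding probes. Sar1a, a GTPase of the COPII coat that carries Scap and SREBP out of the endoplasmic reticulum, changed by -2.43 and -1.05 at its probes. Ubxn8, an adaptor of the p97 ATPase whose role in sterol sensing is not established, changed by -1.61. The coat subunit gene Sec24a changed by 1.94 and 0.28 at its probes and Sec23a by 0.96 at the probe that passed the filter. Among 11 genes of sterol uptake and transport, with 16 probes, the median was 0.31, and 5 probes, 31.2%, were at -0.8 or lower beside 45.2% of coding probes, and 2, 12.5%, at 1 or more beside 12.6%. The receptor gene Scarb1 changed by -2.16 and Npc2, which moves cholesterol out of lysosomes, by -2.10. Lrp1 changed by 2.04. The probes of the sterol carrier gene Stard4 disagreed in direction, with changes of 1.59, -1.18 and -1.62.

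The list of efflux genes and of LXR and its partners, which answer sterol excess, had the lowest median of the lists, -1.26 over 7 probes of 5 genes, and a median change of -0.09 in A. The median in log2 P/FM was -0.25 with processed signals, -0.19 with loess and -0.71 with centring. The retinoid receptor genes Rxra and Rxrb, partners of LXR, made up 4 of the 7 probes and changed by -2.46 and -1.26 and by -2.18 and -2.10. The lipoprotein gene Apoe changed by -0.04 and the LXR gene Nr1h2 by -0.43, while the cholesterol exporter gene Abca1 changed by 2.13, with P signals of 37.4 in control and 114 in thapsigargin cells. Fatty acid genes under SREBP-1 had a median of 0.40 over 14 probes of 11 genes. The desaturase genes Fads2 and Fads1 changed by -2.52 and -1.53, and Scd2 and the elongase gene Elovl6 by 1.47 and 1.27. Over all 5 lists, 34.1% of 88 probes changed by -0.8 or lower and 13.6% by 1 or more, beside 45.2% and 12.6% of coding probes, and the median was -0.14. Without the spread of replicate arrays these shares describe the lists and set none of them apart. The medians of the enzyme and processing lists turned positive with normexp, processed signals, loess and centring, and that of the uptake list was -0.03 without the filter on A.

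**Figure D4:**
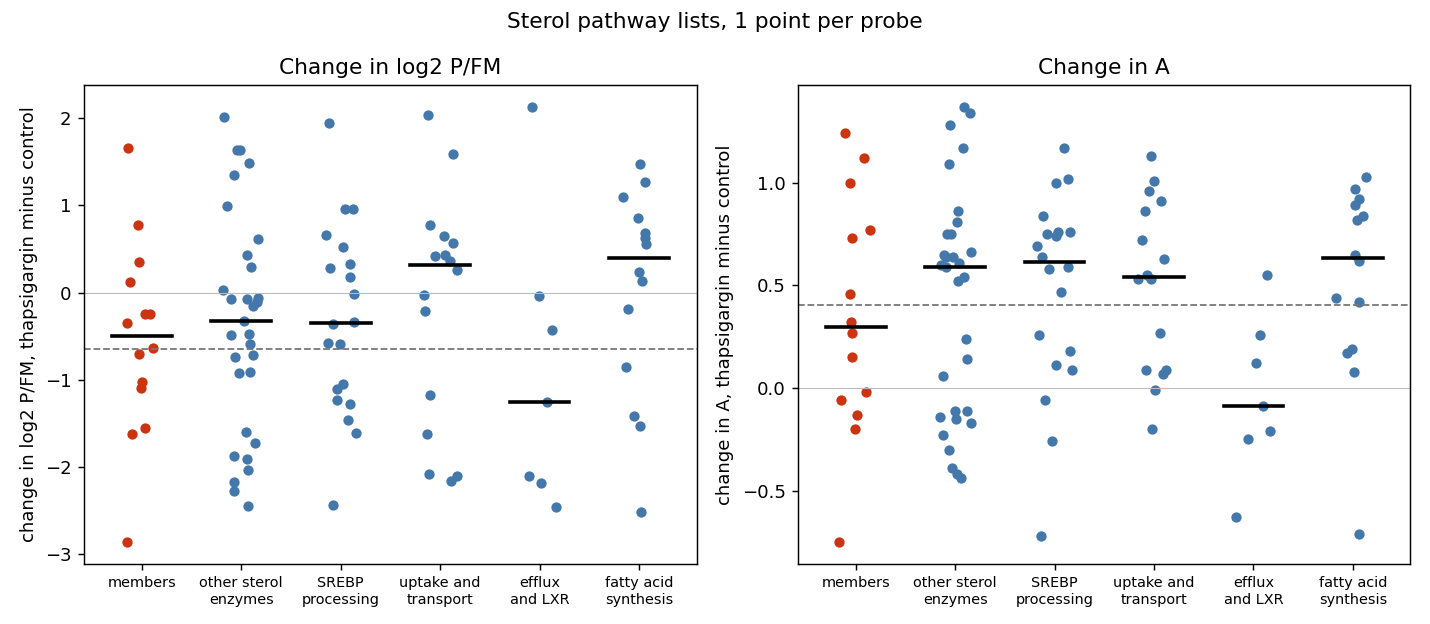
Each point is 1 probe past the filter, placed by its change in log2 P/FM (left) and in A (right), thapsigargin minus control, for the 14 member probes (red) and the 5 pathway lists (blue), with list medians as bars and the coding medians, -0.64 and 0.40, as dashed lines. Every list spread over both directions in log2 P/FM, and the efflux list had the lowest median in both panels.

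The mRNAs nearest to each member over log2 P/FM and A on both arrays were searched for in the lists and in all coding probes. For the bright Hmgcs1 probe the nearest of all coding probes was a probe of Hsd17b7, an enzyme of the same pathway, at a distance of 0.73 on the log2 scale over the 4 values, with log2 P/FM of 0.49 in control and 1.99 in thapsigargin cells. This was the only member probe of 14 whose nearest coding probe came from the pathway lists. Its match was also the loosest of the 14, the next loosest being that of Scap. Scap was nearest to Ece2 (0.37), whose log2 P/FM changed from 1.19 to -1.84, and Sqle to Actr3 (0.11), which changed from 0.97 to -0.11. Within the lists Srebf2 (ENSMUST00000023100) was nearest to Ebp (0.57), which changed by -2.17, and Srebf1 to Sc5d (0.65), which changed by -0.72. Reference mRNAs of the stress response and the cytoskeleton give the range of these values. Atf4, translated when eIF2α is phosphorylated, changed by 3.42, the chaperone gene Hspa5 by 1.36 with a gain of 1.96 in A, and Actb by -1.75. The mean change of Hmgcs1, 1.22 ± 0.63 (SD over 2 probes), was not separated from that of Hspa5 by the spread between its probes and was below that of Atf4, and the change of Scap was below that of Actb.

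SREBPs bind sterol regulatory elements in promoters, and the promoters of the members were read for the letters TCACNCCA, a core of such elements, on both strands from 250 bases before to 50 bases after each start. RefSeq windows of build GRCm38.p6 were found for 7 of the 8 members, 12 windows in all. The core was in windows of Hmgcs1, 137 bases before the start, and of Srebf2, 162 bases before, and in 4.36% of all 32851 windows. No link between the core and log2 P/FM was tested. These stretches of 60 bases are shown because they hold the core, in capitals.
Hmgcs1, chr13:119690188-119690247, plus strand: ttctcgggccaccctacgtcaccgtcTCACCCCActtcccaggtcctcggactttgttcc
Srebf2, chr15:82147081-82147140, plus strand: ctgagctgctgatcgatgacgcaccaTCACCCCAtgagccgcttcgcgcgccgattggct
Among 14 of the other sterol enzymes with a window, Msmo1 alone held the core. The CCAAT box was in 7 of the 12 member windows, those of Hmgcs1, Idi1, Insig1, Insig2, Srebf1 and Srebf2, in 13 of 17 enzyme windows and in 37.4% of all windows. The E-box CACGTG was in 3 of the 12 member windows, those of Insig1 and Scap, in 3 of 17 enzyme windows and in 7.15% of all windows. The letters TGATGNAA, a core of elements for C/EBP and ATF factors, were in 3 of the 12 member windows, those of Idi1 and Insig2. They were in 0 of 17 enzyme windows and in 3.97% of all. The longer ERSE, the element of the unfolded protein response, was in none of the member windows and in 0.119% of all. These are matches of letters, and no binding was measured.

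**Figure D5:**
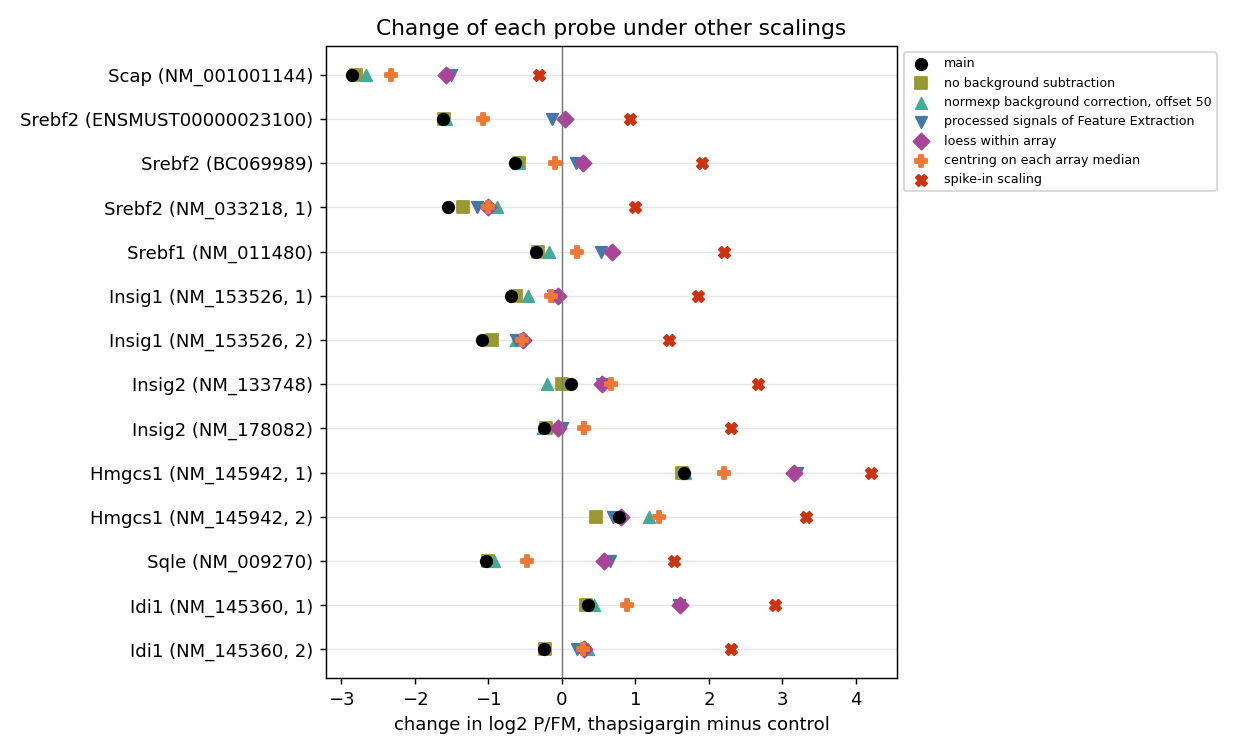
The change in log2 P/FM of the 14 member probes (thapsigargin minus control) is shown as processed for the report (black circles) and under 6 other background corrections and scalings, with the unscaled zero as a line. Scap stayed left of zero and both Hmgcs1 probes right of it under all of them, while the other decreases turned positive after spike-in scaling. With loess those of Sqle, Srebf1, the Idi1 junction probe and the BC069989 and ENSMUST00000023100 probes of Srebf2 were also right of zero.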

How the data were processed

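Two-colour arrays carried RNA of NIH3T3 cells, 1 array per condition from 3 pooled experiments. Per the labels, RNA was separated on a 10 to 40% sucrose gradient and 300 ng in total was labelled. Both arrays were on 1 slide and in 1 scan. Per the file headers, the spot and background intensity values came from Feature Extraction 10.7.1 without normalization. The authors' table of log2 ratios was not used. The deposited files hold no counts, so precision is limited by the number of arrays.

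Following the study's methods, median background was taken off each mean signal, to a floor of 0.5 (limma 3.58.1 in R 4.3.3), and no normalization was applied. Of 43379 transcript spots, 295 with an outlier flag in any channel were dropped, and spots of a probe were averaged. No spot was saturated, and 42.5% to 46.3% were well above background per channel and array. All probes of the 8 genes were named, and in each pathway list the 2 largest rises and falls among probes well above background, with exceptions stated, and some results of the enzyme list are not reported here. Members and lists were chosen with earlier results of these data known. The calculation was tested on simulated data. Alternatives were normexp (offset 50), no background subtraction, the processed signals, loess, centring, spike-in scaling, A above 5.5, no filter, well-above-background probes only, and outlier spots kept. Promoter sequences and current gene names are RefSeq's (GRCm38.p6). Protein sequences and a Sqle promoter were not used here.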

Additional observations from a re-analysis of the deposited data

How the results depend on the processing

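The 14 member probes and the comparison set were kept in each rescaling. No background subtraction, A above 5.5, well-above-background probes only and outlier spots kept moved no summary value by more than the spread between probes. The median change in log2 P/FM of the members, -0.49, was 0.19 with processed signals, 0.29 with loess, 0.05 with centring and 2.06 with spike-in scaling. Their control median, 0.48, was 0.07 with normexp, -0.11, -0.13, 0.18 and 0.89 in the same order of the others. Their median change in A, 0.29, was -0.22 with normexp, -0.11 with processed signals, -0.21 with centring and 0.55 with spike-in scaling. The pathway lists together, -0.14, gave 0.19 with normexp, then 0.33, 0.39, 0.41 and 2.41, and all coding probes, -0.64, gave 0.02, then -0.23, -0.11, -0.10 and 1.91. Member probes at -0.8 or lower, 5, numbered 2 with processed signals, 2 with loess, 3 with centring and 0 with spike-in scaling. Those at 1 or more, 1, numbered 2 with normexp, processed signals, loess, centring and no filter, and 12 with spike-in scaling. Those with A higher by 1 or more, 2, numbered 0 with normexp, processed signals and centring and 4 with spike-in scaling. Among changes of at least 0.8 in size, those that turned sign were Sqle (processed signals 0.65, loess 0.57, spike-in scaling 1.52), Srebf2 ENSMUST00000023100 (loess 0.04, spike-in scaling 0.93), Srebf2 NM_033218 (spike-in scaling 1.00), the Insig1 junction probe (spike-in scaling 1.46) and the efflux list (spike-in scaling 1.29). Smaller decreases that turned positive were Srebf1 and Srebf2 BC069989 (spike-in scaling 2.20 and 1.91), the 3′ Insig1 probe (1.85), the NM_178082 probe of Insig2 and the Idi1 junction probe (2.30 each), with other settings given above for all but the 3′ Insig1 probe. The cause was not tested. Scap, both Hmgcs1 probes that passed the filter and the 3′ Idi1 probe kept their signs. No paired analysis was possible because each condition had 1 array, and no array could be left out.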
